A study of Mus musculus with 4 samples.

Results

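The site-poor windows of the mouse autosomes are stretches of 1 Mb in which an HIV-based vector was found integrated at 15 or fewer places, all 4 libraries of the study added together. They numbered 221 of the 2419 windows that tile the autosomes in build mm9, which is 9.14% of the windows. Each chromosome was divided from position 1 into fixed windows, and those from the window of its first site to that of its last site were kept. A site is a distinct junction of vector and chromosome, counted once per chromosome, strand and position. All cells were mouse embryonic fibroblasts of strain C57BL/6, genotype Psip1 (-/-), which lack the tether protein LEDGF/p75. They were nucleofected with a plasmid for TAF3 joined to the integrase-binding domain of LEDGF. In Full WT the fusion held the whole of TAF3, in PHD WT its PHD domain alone, and Full M880A and PHD M880A were the same constructs with the M880A substitution. The cells recovered for 24 to 36 h, were sorted for GFP, received 500 ng of pseudotyped luciferase vector and were harvested 48 to 72 h later. The fusion protein came from an introduced plasmid, and the labels name no change in the cells' own TAF3.

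HIV integrase inserts viral DNA at many places of the genome and is normally brought to the bodies of active genes by LEDGF/p75. In cells without that protein, a fusion of another chromatin protein to the integrase-binding domain can bring integration to the places where that protein binds. TAF3 belongs to TFIID, the complex that recognises promoters for RNA polymerase II, and its PHD finger recognises trimethylated lysine 4 of histone H3, a mark of active promoters. Large mammalian chromosomes alternate between gene-rich domains with many active promoters and long gene-poor domains, and HIV-based vectors are known to integrate mostly in the former. The windows described here are the low end of the integration map, and the question is which form of TAF3 still had sites there and how far such stretches extend.

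Each form was represented by 1 library, so no value below has a replicate check, and differences are between these libraries. The autosomal lists held between 21654 (Full WT) and 37477 (Full M880A) sites, with 24277 in PHD WT and 33085 in PHD M880A. The read names place Full WT on one flow cell and the remaining 3 libraries together on another, so in each comparison with Full WT the flow cell cannot be told apart from the fusion. Intervals are exact 95% intervals, which cover counting error only and take sites as independent. No genome or gene annotation of mm9 was used, so genes, base composition and the part of each window that reads can be assigned to were not analysed here.

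The median window of the genome held 38 sites over the 4 libraries, with quartiles of 24.5 and 58 and a highest count of 556. The 221 windows were chosen by these counts, so their low totals are a description. Their median was 12 sites and their mean 10.0, against a mean of 52.0 in the other 2198 windows. They held 2212 of all 116493 autosomal sites (1.90%). Of the 221 windows, 147 held 10 to 15 sites, 43 held 4 to 9, 12 held 1 to 3, and 19 held no site of any library. The limit of 15 cut through a continuous distribution. Just inside it, 28 windows held 13 sites, 22 held 14 and 36 held 15. Just outside it, 36 held 16, 37 held 17 and 48 held 18.

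The M880A libraries contributed most of the sites that remained in these windows. Full M880A had 867 sites there and PHD M880A 864, while Full WT had 262 and PHD WT 219. The M880A libraries thus made up 78.3% of the sites of the site-poor windows and 60.6% of all autosomal sites. As a share of its own autosomal sites, Full WT placed 1.21% (1.07 to 1.36) in the site-poor windows. Full M880A placed 2.31% (2.16 to 2.47) there. The share of PHD WT was 0.902% (0.787 to 1.03), the lowest of the libraries. That of PHD M880A was 2.61% (2.44 to 2.79), the highest. Every library lay far below the 9.14% that the windows make up of the tiled autosomes, by a factor of 0.132 in Full WT, 0.253 in Full M880A, 0.0987 in PHD WT and 0.286 in PHD M880A. These shares describe windows that the same 4 libraries selected. In windows chosen by the other 3 libraries, with the limit of 15 scaled to their size, Full WT had 1.21% of its sites on 7.61% of the windows and PHD WT 0.902% on 7.11%. Full M880A had 5.06% on 13.1% and PHD M880A 7.33% on 15.9%, shares over 2 times those above in a larger number of windows. Relative to the share of windows these are factors of 0.159 (0.140 to 0.179) in Full WT, 0.386 (0.369 to 0.404) in Full M880A, 0.127 (0.111 to 0.145) in PHD WT and 0.461 (0.443 to 0.479) in PHD M880A. The factors come from different sets of windows, 184, 317, 172 and 385 in number, each chosen by other libraries. They are therefore not like for like between libraries.

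**Figure D1:**
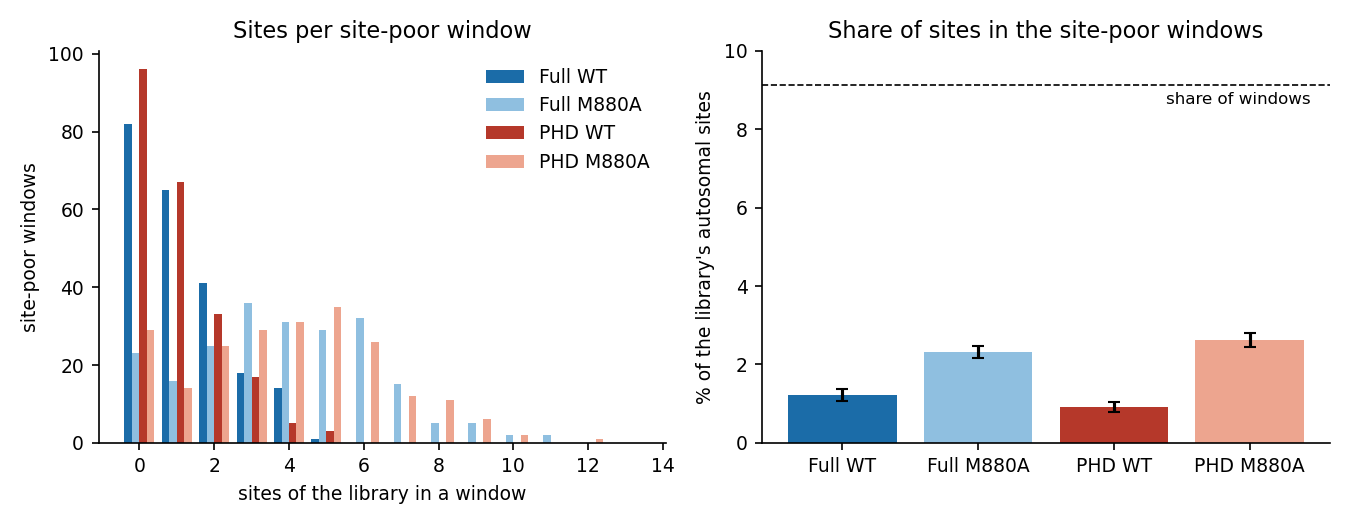
Left, number of site-poor windows (y axis) by the number of sites a library had in the window (x axis), with 1 colour per library. Right, percent of each library's autosomal sites in the site-poor windows (bars) with exact 95% intervals, and the share of windows as a dashed line (9.14%); the WT bars stand at 1.21% and 0.902% and the M880A bars at 2.31% and 2.61%.

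Both M880A libraries also occupied more of the windows than either WT library. Full M880A had at least 1 site in 198 of the 221 windows, PHD M880A in 192, Full WT in 139 and PHD WT in 125. The lists differ in length, and a random draw of 21654 sites, the size of the Full WT list, would be expected to occupy 182 windows in each M880A library and 117 in PHD WT. The median site-poor window held 4 sites of each M880A library and 1 of each WT library. All 4 libraries were present in 87 of the 221 windows and in 2058 of the other 2198. Among the 221 windows, only PHD WT was missing in 48 and only Full WT in 35. These counts follow in part from the limit on the window totals and are a description. Sites of M880A libraries without any WT site occurred in 27 site-poor windows and in 2 of the other 2198. The reverse, a WT site without any M880A site, occurred in 1 window, on chromosome 7 from 32000001 to 33000000, with a single PHD WT site of 18 reads.

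Windows empty of Full WT were found mostly, but not only, in the site-poor set. Those empty of PHD WT were about equally many inside it, among 221 windows, and outside it, among 2198. Over all 2419 windows, 5.08% held no Full WT site and 8.14% no PHD WT site. Within the site-poor windows 82 (37.1%) had no Full WT site and 96 (43.4%) no PHD WT site. Windows with no Full M880A site (0.951% of all windows) or no PHD M880A site (1.2%) lay entirely within the site-poor set, 23 and 29 of them. Outside it, 41 of 2198 windows (1.87%) had no Full WT site and 101 (4.60%) no PHD WT site, and all had sites of both M880A libraries. Nothing is read from these counts beyond their values, because the rule used them.

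Between the sequences of 1 length, the M880A library had the larger share for both the PHD domain alone and the whole protein. The share of sites in the site-poor windows was 2.89 times higher in PHD M880A than in PHD WT (2.49 to 3.37), from libraries of 1 flow cell. PHD M880A had more sites than PHD WT in 172 of the 221 windows, fewer in 12 and equally many in 37. For the full-length protein, the share was 1.91 times higher in Full M880A than in Full WT (1.66 to 2.20), with more sites in 176 windows and fewer in 10. These window counts are not scaled to the lengths of the lists. Scaled to the autosomal sites of each library, PHD M880A was higher in 166 windows and PHD WT in 29. For the full-length pair, Full M880A was then higher in 153 windows and Full WT in 46. Because a library whose sites crowd into small regions elsewhere has a lower share everywhere else, the shares were also taken with sites of a library within 1 kb of each other counted once. This left 11741 of the 24277 PHD WT sites and 31444 of the 33085 PHD M880A sites. The ratio of PHD WT to PHD M880A then moved from 0.345 (0.296 to 0.401) to 0.633 (0.541 to 0.739), and that of Full WT to Full M880A from 0.523 (0.454 to 0.601) to 0.606 (0.525 to 0.698). Both stayed below 1.

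Between the lengths, the differences were small. With the WT sequence, the share was 1.34 times higher in Full WT than in PHD WT (1.12 to 1.61), but it was 0.940 (0.778 to 1.14) with neighbouring sites counted once, so its direction depends on how crowded sites are counted. With M880A, the ratio of Full M880A to PHD M880A was 0.886 (0.805 to 0.975) and became 0.982 (0.892 to 1.08) with neighbouring sites counted once. At a limit of 10 sites per window it was 1.07 (0.860 to 1.33).

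Few single windows carried a difference by themselves, since at most 15 sites were divided among the libraries. No adjustment for the number of windows was made in the interval of a single window. Over all windows, the exact interval of the ratio excluded 1 with a higher share in PHD M880A in 13.5% and with a higher share in PHD WT in 7.44%. Among the site-poor windows, 15 were of the first kind and 0 of the second. For the full-length pair 4.13% of all windows were higher in Full M880A and 4.09% in Full WT, with 2 and 0 site-poor windows among them. Between the WT libraries 2.56% were higher in Full WT and 1.69% in PHD WT, with no site-poor window in either direction. Between the M880A libraries 3.8% were higher in Full M880A and 3.47% in PHD M880A, with 3 and 2 site-poor windows. In each of the 8 directions the share among site-poor windows lay below that of all windows, and their low totals leave little room for an interval to exclude 1.

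The rule added up all 4 libraries, so the comparison of a pair was repeated in windows that neither library of the pair had selected. Windows were chosen by the sum of the other 2 libraries, with the limit of 15 scaled to their size. For the PHD pair, 295 windows had 8 or fewer Full WT and Full M880A sites together, 191 of them site-poor windows. They held 493 PHD WT and 1730 PHD M880A sites, 2.03% and 5.23% of each library, a ratio of 0.388 (0.351 to 0.429). For the Full pair, 259 windows had 7 or fewer sites of the PHD libraries, and they held 446 Full WT and 1492 Full M880A sites, a ratio of 0.517 (0.464 to 0.575). The lower share of the WT libraries was therefore also measured where those libraries had no part in choosing the windows. With neighbouring sites counted once, the ratios were 0.639 (0.572 to 0.712) and 0.598 (0.536 to 0.667).

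The comparison between lengths was less clear in windows chosen this way. In the 138 windows with 9 or fewer sites of the M880A libraries there were 196 Full WT and 187 PHD WT sites, and the interval of their ratio, 1.18 (0.957 to 1.44), held 1. Windows with 6 or fewer sites of the WT libraries were far more numerous, 717, and held 5654 Full M880A and 5681 PHD M880A sites, a ratio of 0.879 (0.847 to 0.912). With neighbouring sites counted once that ratio was 0.974 (0.938 to 1.01).

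Ranked by the other 2 libraries, the windows at or below the limit were the low end of a gradient in the ratios of WT to M880A. Within the site-poor windows, the PHD ratio did not fall steadily with the total of the window, as given with the run lengths below. From the windows at or below the limit to those with more than 8 times the limit, as counted in the Full libraries, the ratio of PHD WT to PHD M880A was 0.388, 0.489, 0.836, 1.31 and 2.36. The windows of these 5 steps numbered 295, 711, 929, 374 and 110. The ratio of Full WT to Full M880A, in steps counted in the PHD libraries, was 0.517, 0.581, 0.887, 1.11 and 1.52. Counting neighbouring sites once made the slope shallower and kept its direction, from 0.639 to 1.72 for the PHD pair and from 0.598 to 1.46 for the Full pair. The ratio of Full WT to PHD WT lay between 0.958 and 1.18 at all steps. That of Full M880A to PHD M880A, in steps counted in the WT libraries, was 0.879, 0.877, 0.910, 1.04 and 1.43, so that a slope was also measured between libraries of 1 sequence. It ran from 0.974 to 1.16 with neighbouring sites counted once.

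**Figure D2:**
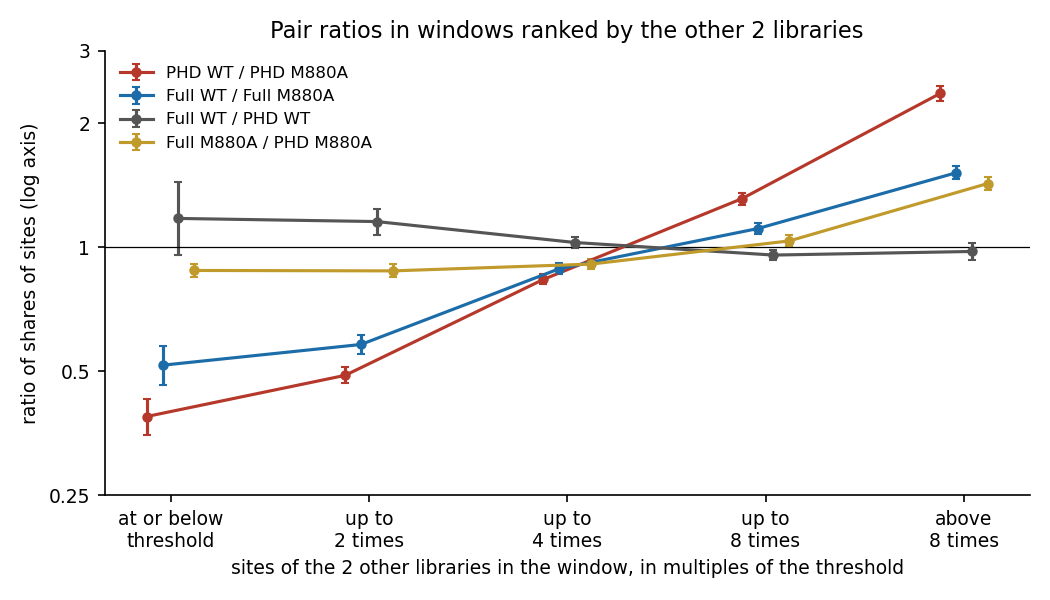
Ratio of the shares of sites of a pair of libraries (y axis, log scale, with exact 95% intervals) in windows grouped by the number of sites of the other 2 libraries, in multiples of the scaled limit (x axis). The ratios of WT to M880A run from 0.388 to 2.36 for PHD and from 0.517 to 1.52 for Full, that of Full M880A to PHD M880A runs from 0.879 to 1.43, and that of Full WT to PHD WT stays between 0.958 and 1.18.

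The site-poor windows formed 150 runs of adjacent windows. Of these, 110 were single windows, 24 were 2 Mb long, 9 were 3 Mb, 5 were 4 Mb, 1 was 5 Mb and 1 was 11 Mb. A site-poor window had a site-poor neighbour in 111 of 221 cases (50.2%). Of the 381 windows next to a site-poor window 29.1% were site-poor themselves, against 5.40% of the 2038 windows with no such neighbour. These values are a description of the selected windows.

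The runs were unevenly divided among the chromosomes. Chromosome 7 had 53 site-poor windows, 35.3% of its 150 windows and 24.0% of the whole set. Chromosome 14 followed with 27 of 118 windows (22.9%) and chromosome 12 with 21 of 119 (17.6%). At the other end, chromosomes 10 and 19 had 1 each, and chromosomes 11, 15 and 16 had 2 each. All 19 autosomes had at least 1. Along the chromosomes, 10.7% of the windows in the third with the lowest coordinates, which holds the centromere end in the mouse, were site-poor, 9.18% in the middle and 7.49% in the third with the highest coordinates. Of the 38 windows at the ends of the tiled chromosomes, 5 were site-poor.

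**Figure D3:**
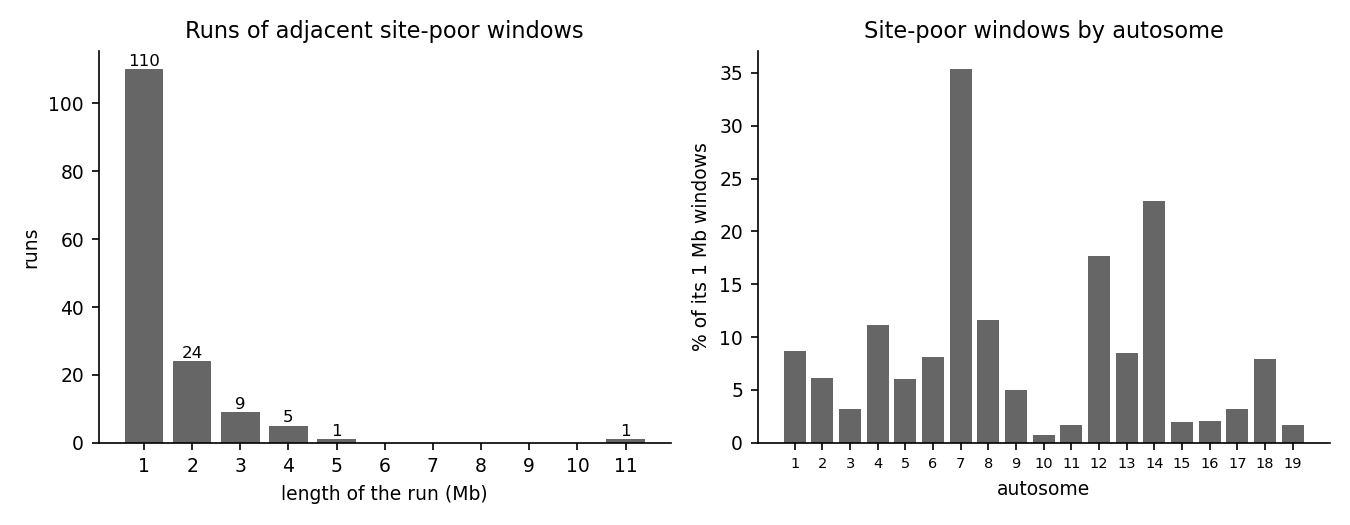
Left, number of runs of adjacent site-poor windows (y axis) by their length in Mb (x axis), with the number above each bar. Right, percent of the 1 Mb windows of each autosome that were site-poor; chromosome 7 stands highest at 35.3%, followed by chromosome 14 at 22.9% and chromosome 12 at 17.6%.

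The longest run lay on chromosome 7 from 37000001 to 48000000 (mm9). Its first 3 windows held 13, 13 and 10 sites, its next 6 held none, and its last 2 held 4 and 7. Over the 11 Mb Full WT had 9 sites, Full M880A 14, PHD WT 10 and PHD M880A 14. The empty stretch reached from a Full WT site at 39107684 to a PHD WT site at 46705587, a distance of 7.60 Mb. No library had a site in it. The windows before the run held 41 and 40 sites, close to the genome median of 38. Before these lay another site-poor run of 3 Mb, with 1, 0 and 11 sites. The windows directly after the long run held 21, 16, 28 and 36 sites, and the next, from 52000001, held 220. Of these, 68 were Full WT, 63 Full M880A, 71 PHD WT and 18 PHD M880A.

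**Figure D4:**
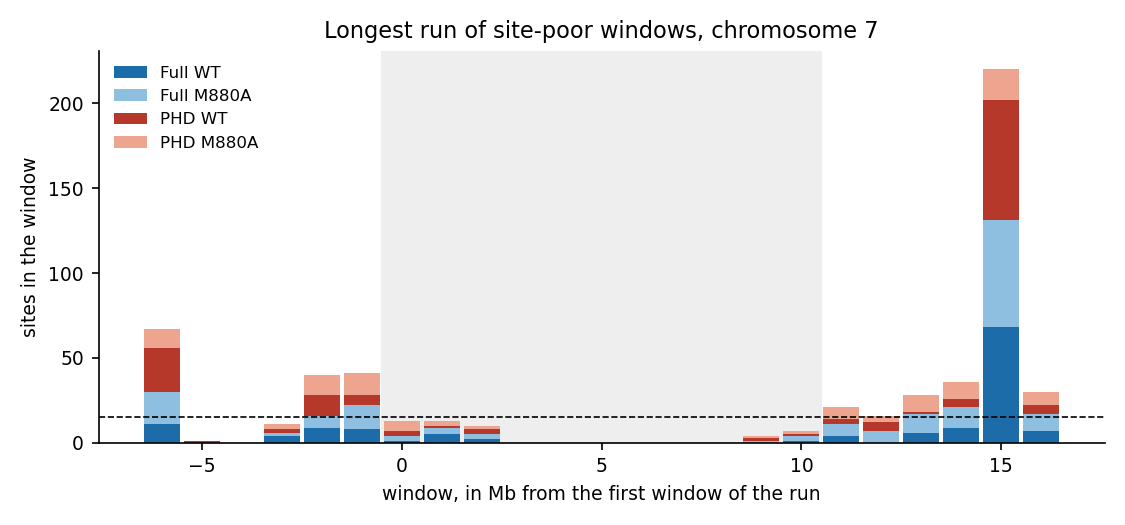
Sites per 1 Mb window (y axis, stacked by library) around the longest run of site-poor windows on chromosome 7, by distance in Mb from its first window (x axis). Grey marks the run of 11 Mb, 6 windows of which held no site, and the dashed line is the limit of 15 sites.

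The second longest run, on chromosome 12 from 26000001 to 31000000, was of another kind, with 8 to 14 sites in each window and none empty. It held 8 Full WT, 19 Full M880A, 11 PHD WT and 18 PHD M880A sites. Of the runs of 4 Mb, that on chromosome 7 from 21000001 to 25000000 held 4 sites in all and 3 empty windows, and that from 7000001 to 11000000 held 10 sites, of which 5 were Full M880A, 4 PHD M880A, 1 Full WT and 0 PHD WT. The run on chromosome 8 from 19000001 to 23000000 held 20 sites with 2 empty windows, and here PHD WT had 6, Full M880A 8, Full WT 3 and PHD M880A 3. The others of 4 Mb had no empty window: chromosome 1 from 147000001 to 151000000 held 50 sites, 19 of each M880A library, and chromosome 14 from 80000001 to 84000000 held 53, of which 24 were PHD M880A and 4 PHD WT. Among the runs of 3 Mb with the fewest sites, chromosome 12 from 22000001 to 25000000 held 1 PHD M880A site, chromosome 14 from 42000001 to 45000000 held 7 sites, 5 of them PHD M880A, and chromosome 2 from 175000001 to 178000000 held 11, all in its last window.

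Windows without any site were clustered as well. Of the 19, 11 lay on chromosome 7, 2 each on chromosomes 2, 8 and 12, and 1 each on chromosomes 1 and 13. Over all libraries, 16 distances between consecutive sites were 1 Mb or longer, and each of them touched a site-poor window. They added up to 34.4 Mb, and 5 of them were on chromosome 7. After the 7.60 Mb gap, the next longest were 3.598 Mb on chromosome 7 between 20576241 and 24174336, and 2.53 Mb on the same chromosome between 7138837 and 9667334. Gaps of 2.20 Mb lay on chromosome 12 between 22849580 and 25051985 and on chromosome 2 between 174981455 and 177182868. One of 2.19 Mb lay on chromosome 1 between 85289861 and 87475716, and one of 2.13 Mb on chromosome 8 between 19945514 and 22079147.

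Stretches without a site were also taken for each library by itself. All 4 libraries had their longest run of empty windows on chromosome 7 at the 7.60 Mb gap, 7 Mb in Full WT and 6 Mb in the other 3. Runs of at least 3 Mb without a site numbered 7 in PHD WT, 4 in Full WT, 3 in Full M880A and 2 in PHD M880A, over all autosomal windows and without adjustment for list length. For PHD WT, 4 Mb of this kind lay on chromosome 7 from 7000001 to 11000000, where the other libraries had 10 sites.

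With the sites of all runs of a length pooled, the ratios of WT to M880A were nearer to 1 in the longer runs. In the 110 single windows the ratio of PHD WT to PHD M880A was 0.299 (0.242 to 0.367), in the 48 windows of 2 Mb runs 0.339 (0.243 to 0.466), and in the 63 windows of longer runs 0.511 (0.370 to 0.697). For the Full pair the ratios were 0.433 (0.356 to 0.523), 0.564 (0.413 to 0.761) and 0.828 (0.608 to 1.12). The longer runs were not alike. PHD WT and PHD M880A had 10 and 14 sites in the longest run. They had 11 and 18 in the run of 5 Mb, and 6 and 3 in that on chromosome 8. Those on chromosome 14 from 80000001 and chromosome 1 from 147000001 had 4 and 24, and 4 and 19. The part of single runs in the pooled ratios was not tested. The windows of runs of 3 Mb or more also held fewer sites, 6.56 on average against 11.9 in single windows. The part of that lower level in the ratios was not tested. By the total of the window alone, the PHD ratio was 0.344 (0.220 to 0.520) at 1 to 9 sites, 0.389 (0.299 to 0.503) at 10 to 12 and 0.321 (0.259 to 0.395) at 13 to 15, and it was 0.302 (0.256 to 0.355) in the windows just outside the limit, with 16 to 18 sites. The Full ratio at these totals was 0.433 (0.288 to 0.634), 0.552 (0.424 to 0.711), 0.533 (0.440 to 0.643) and 0.438 (0.375 to 0.510).

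The level beside the runs is given as a description, because a window next to a run holds more than 15 sites by the rule. The 270 windows directly beside a site-poor window that were not site-poor themselves held 38.6 sites on average and a median of 33, those at a distance of 2 windows 46.6, and those at 3 windows 49.3. Relative to its mean over all windows, each library was at 0.0987 (PHD WT) to 0.286 (PHD M880A) inside and at 0.736 (Full WT) to 0.875 (PHD M880A) in these 270 windows. Within the 110 single windows, the outer 200 kb on both sides make up 40% of the length and held 40.1% (31.9 to 48.9) of the sites in Full WT, 42.7% (38.5 to 47.0) in Full M880A, 44.2% (34.9 to 53.9) in PHD WT and 40.4% (36.1 to 44.8) in PHD M880A, so that each interval held 40%.

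The windows in which a library reached its highest counts show how its sites were arranged. The highest count of an M880A library in a site-poor window was that of PHD M880A on chromosome 14 from 82000001 to 83000000, with 12 sites against 0 of PHD WT, 2 of Full WT and 1 of Full M880A. This was a share 2.94-fold higher than in PHD WT with that library set at a floor of 3 sites. The interval of the ratio of PHD WT to PHD M880A reached up to 0.490, which allows a smaller fold. The 12 sites were spread from 82057743 to 82949147, and none had another PHD M880A site within 1 kb. PHD M880A had 10 sites in windows on chromosome 3 from 6000001 to 7000000 and chromosome 6 from 26000001 to 27000000, each with 1 PHD WT site, and there too no sites lay within 1 kb of each other. The other 12 windows with a higher share in PHD M880A had 7 to 9 of its sites and 0 of PHD WT. On chromosome 7 from 15000001 to 16000000, 8 PHD M880A sites stood beside 1 of Full M880A (ratio of Full M880A to PHD M880A 0.110, 0.00249 to 0.823), with 2 of PHD WT and 0 of Full WT.

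Full M880A had 11 sites in 2 site-poor windows. On chromosome 14 from 24000001 to 25000000 it stood beside 0 Full WT, 2 PHD WT and 2 PHD M880A sites. Of its 11 sites there, 2 lay within 1 kb of each other, and the median was 8 reads. Its share was 2.12-fold higher than that of Full WT set at the floor of 3 sites. The interval of the ratio of Full WT to Full M880A reached up to 0.690. The floor covers no counting error, so these intervals reach smaller folds. On chromosome 7 from 145000001 to 146000000 every other library had 1 site, and the Full M880A sites had a median of 4 reads. Of these 11 sites, 4 had another Full M880A site within 1 kb. The ratio of Full M880A to PHD M880A was 9.71 there (1.41 to 418). With 10 Full M880A sites, 2 windows followed. That on chromosome 6 from 105000001 to 106000000 had 10 Full M880A, 4 PHD M880A, 1 Full WT and 0 PHD WT sites. On chromosome 6, 9 Full M880A and 0 Full WT sites lay between 111000001 and 112000000. The share was 1.73-fold higher in Full M880A by the same floor, with an interval of the ratio of Full WT to Full M880A up to 0.877. A window on chromosome 7 from 64000001 to 65000000 held sites of Full M880A alone, 7 in number, spread from 64105148 to 64955830 with a median of 19 reads. It was 1 of 9 site-poor windows with a single library, of which 6 had Full M880A, 2 PHD M880A and 1 PHD WT. The other 8 held 1 to 3 sites. Outside the site-poor set every window had sites of both M880A libraries, so none there held a single library. Full M880A had the longest list, and these counts are without adjustment for list length.

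The WT libraries never exceeded 5 sites in a site-poor window. Full WT had 5 on chromosome 7 from 38000001 to 39000000, of which 3 lay within 968 bp of each other, from 38890612 to 38891579. Its next highest count, 4, was shared by 14 windows. PHD WT had 5 in each of 3 windows, which started at 19000001 on chromosome 8, at 50000001 on chromosome 13 and at 97000001 on chromosome 2. In each of them 2 of the 5 lay within 1 kb of each other. The largest group within 1 kb in any library was on chromosome 12, where 4 PHD WT sites fell between 28025356 and 28025974 with 1 Full WT site within 1 kb.

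Crowding of PHD WT was reduced in these windows but remained the highest of the libraries. Of its 219 sites there, 31 had another PHD WT site within 1 kb (14.2%, 9.82 to 19.5), against 68.1% (67.5 to 68.7) elsewhere. For Full WT it was 14 of 262 (5.34%, 2.95 to 8.80) against 40.1%, for Full M880A 22 of 867 (2.54%, 1.60 to 3.82) against 22.2%, and for PHD M880A 20 of 864 (2.31%, 1.42 to 3.55) against 9.18%. A window limited to 15 sites has few neighbours to offer, so the fall itself follows in part from the rule. The WT libraries had the fewest sites there, and the PHD WT share with a neighbour was still above those of both M880A libraries. Sites with a neighbour come in groups, 14 in PHD WT, 11 in Full M880A and 10 in PHD M880A. The intervals take sites as independent and are therefore too narrow for this measure. Between libraries, a Full WT site was found at most 1 kb away for 18 PHD WT sites (8.22%, 4.94 to 12.7), against 55.4% elsewhere. A PHD WT site was found that close to 9 PHD M880A sites (1.04%, 0.477 to 1.97), against 7.27% elsewhere.

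The median of reads per site, which the rule did not use, was lower in the site-poor windows in each library, and by least in the M880A libraries. The share of sites with at most 5 reads was higher there in PHD WT, beyond the intervals. The number attached to each site in the lists was taken as its reads, with a minimum of 2 in each list. PHD WT sites had a median of 10 reads in the site-poor windows, with quartiles of 2 and 66, and a median of 29 elsewhere, with quartiles of 4 and 98. The medians were 25.5 and 42 in Full WT, 20 and 24 in Full M880A, and 22 and 23 in PHD M880A. Sites with at most 5 reads made up 41.6% (35.0 to 48.4) of the PHD WT sites in the site-poor windows and 27.8% (27.3 to 28.4) elsewhere. In Full WT these shares were 22.9% (17.95 to 28.5) and 17.8% (17.2 to 18.3), with overlapping intervals. In Full M880A they were 27.0% (24.1 to 30.1) and 26.3% (25.9 to 26.8), and in PHD M880A 21.3% (18.6 to 24.2) and 22.2% (21.8 to 22.7). Along the window totals the Full WT share of such sites was 22.9%, 19.5%, 18.2% and 17.2%, and the PHD WT share of such sites was 41.6% at 1 to 15 sites, 32.2% at 16 to 30, 28.9% at 31 to 60 and 26.7% above 60. When only sites with at least 10 reads were counted in the same 221 windows, the ratio of PHD WT to PHD M880A was 0.268 (0.217 to 0.329) in place of 0.345, and that of Full WT to Full M880A 0.496 (0.417 to 0.588) in place of 0.523.

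**Figure D5:**
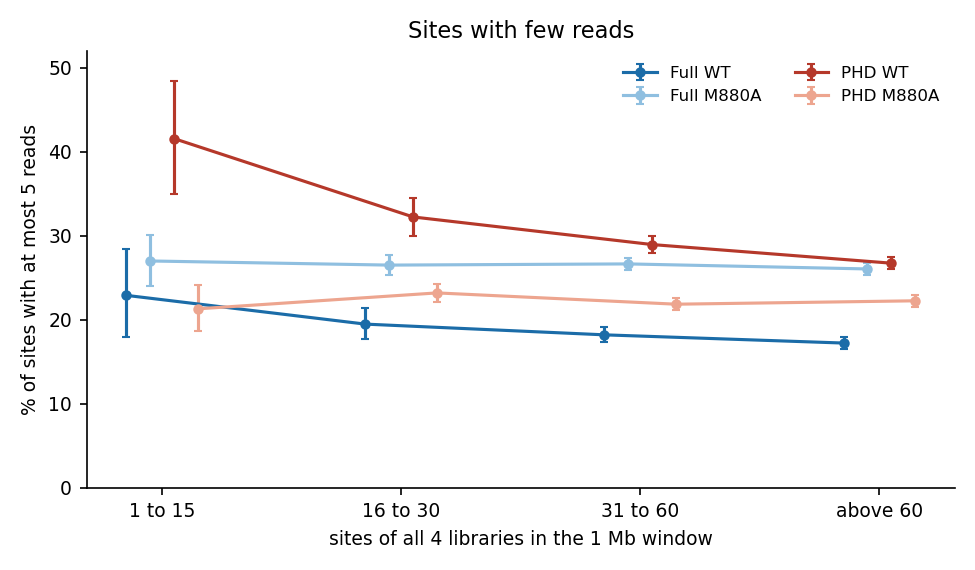
Percent of a library's sites with at most 5 reads (y axis, with exact 95% intervals) by the number of sites of all 4 libraries in the 1 Mb window (x axis). PHD WT stands at 41.6% in the site-poor windows and at 26.7% in windows with more than 60 sites, Full WT at 22.9% and 17.2%, while Full M880A lies between 26.0% and 27.0% and PHD M880A between 21.3% and 23.2%.

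Strand showed little that was particular to the site-poor windows. Repeated positions made up a lower share there than elsewhere in each library, but beyond the exact intervals in Full M880A alone. The plus strand held 51.5% of the sites there in Full WT, 49.9% in Full M880A, 53.0% in PHD WT and 51.2% in PHD M880A, and each interval held 50%. Positions listed in more than 1 library were rare: 0 of 262 Full WT sites, which allows a share of up to 1.15% by a floor of 3 sites and 1.398% by the exact interval, 0 of 867 Full M880A sites, which allows up to 0.346% and 0.425%, and 1 site each of PHD WT and PHD M880A. Elsewhere such positions made up 1.35% in Full WT, within that exact limit, and 0.4999% (0.430 to 0.578) in Full M880A, above its exact limit. In PHD WT they made up 0.457% (0.0116 to 2.52) in the site-poor windows and 1.31% elsewhere. In PHD M880A these shares were 0.116% (0.00293 to 0.643) and 0.282%. The part of the low window totals in this was not tested.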

How the data were processed

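HIT-seq maps integration junctions of an HIV-based vector by linker-mediated PCR and paired reads of 108 nt. The authors deposited 1 BED file of 9 columns per library. Each line is an integration site supported by read pairs, per the file headers. The submitters' processing notes name build mm9 and MACS 1.4.2. How reads were aligned and filtered is not given in the sources used here. A deposited score is 0 throughout and went unused. Groups came from the sample characteristics, 1 library each.

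The junction was start + 1 on the plus strand and end on the minus strand. The 2419 windows, ratios of shares (exact conditional binomial intervals) and shares (Clopper-Pearson) were computed with Python 3.11.15, numpy 2.4.6, pandas 2.3.3 and scipy 1.17.1. The code was tested on simulated data. The text names the 10 longest runs, the empty windows as counts, the 3 fullest members per library and the windows called for a pair. Groups within 1 kb, gaps and single-library windows were added later. The windows, lists and settings were chosen with earlier results of these data known. Since reads from PCR carry no molecular identifiers, distinct positions were counted, and intervals cover counting error only.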

Additional observations from a re-analysis of the deposited data

Results flagged for a closer look

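As counted over all sites, the difference between the lengths ran in opposite directions in the 2 sequences. In the site-poor windows the share of sites was 1.34 times as high in Full WT as in PHD WT and 0.886 times as high in Full M880A as in PHD M880A, with 1 library each. With sites within 1 kb counted once both ratios were below 1, at 0.940 and 0.982, and their intervals held 1. At a limit of 10 sites per window they were 1.19 and 1.07, and their intervals held 1 as well. The difference between the ratios was not tested, and Full WT lay on another flow cell than the other 3 libraries.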

How the results depend on the processing

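No paired analysis was possible because each group has 1 library. Of the other settings, 10 were listed at the outset and 3 were added after seeing the data (sites within 1 kb counted once, sites with at least 10 reads counted in the same windows, and chromosome 7 left out). The 221 windows became 87 at a limit of 10 sites, 440 at 20 and 629 as windows of 500 kb with a limit of 7, and the 150 runs became 55, 270 and 397. Without chromosome 7 the longest run was 5 Mb in place of 11. Every alternative kept the PHD WT to PHD M880A ratio below 1, from 0.268 to 0.633 in the site-poor windows and from 0.324 to 0.639 in windows chosen by the Full libraries, and the Full WT to Full M880A ratio, from 0.437 to 0.606 and from 0.486 to 0.598, with every interval below 1. With windows of 500 kb the PHD ratios were 0.277 and 0.333 and the Full ratio 0.437. Among sites with at least 10 reads the PHD ratios were 0.268 and 0.324 in windows chosen anew with a limit of 10, and 0.268 and 0.325 in the same windows. With sites within 1 kb counted once they were 0.633 and 0.639, and the Full ratios 0.606 and 0.598. At a limit of 10 sites the Full ratio was 0.444, and with libraries weighted equally 0.449. The Full WT to PHD WT ratio was 0.940 in the site-poor windows and 0.932 in those chosen by the M880A libraries with sites within 1 kb counted once, and 0.920 in the latter at a limit of 10 sites. The Full M880A to PHD M880A ratio turned to 1.07 at a limit of 10 sites. It was 0.986 in windows of 500 kb, and 0.982 and 0.974 with sites within 1 kb counted once. The causes were not tested. Of 56 shares per library under the alternatives 26 stayed within the main interval and 30 did not, and of 52 occupancy counts 40 stayed within 1.5 times. Windows with 15 or fewer sites limit what a single window can show.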
